A study of Mus musculus with 8 samples.

Results

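Mouse dentate gyrus cells that passed a filter for quiescent radial glia-like cells were divided by their counts of transcript from a recombined reporter locus. Both kinds were compared within each experiment. Many of the cells carried genes of oligodendrocyte precursors, and some carried genes of neuroblasts. The mice carried Ki67-creERT2, a tamoxifen-dependent recombinase made in dividing cells, Nestin-GFP, a green reporter of neural stem and progenitor cells, and a tdTomato reporter behind a stop sequence flanked by loxP sites. The animals were heterozygous for these alleles on a mixed C57BL/6J and CD1 background, and all received tamoxifen on 6 days and were culled on day 8. The mice were 1 month old in 1 experiment and 2 or 6 months old in 3 experiments each (6 is the label, and the methods give 6 to 8 for the oldest mice), and every experiment was a pool of male and female mice. The comparison is between cells of the same mice and not between genotypes.

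Adult hippocampal stem cells are radial glia-like cells of the dentate gyrus that share many genes with astrocytes and spend most of their time outside the cell cycle. Notch and BMP signals hold them in quiescence, and D-type cyclins drive their entry into the cell cycle. A quiescent cell with a recombined reporter is one in which the recombinase was active earlier in the labelling period, since Ki67 is made by dividing cells. The reporter transcript of such a cell has lost the stop sequence and ends in 2 elements, WPRE and bGHpolyA, that the authors had added to the genome used for read mapping.

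The 26036 barcodes of 8 libraries were filtered as follows. Cells had over 500 genes and under 10% mitochondrial UMIs (unique molecular identifiers, each of them 1 counted transcript). At least 3 of the 6 radial glial and astroglial genes Aldoc, Slc1a3, Slc1a2, Gja1, Ntsr2 and Hopx were detected, the astrocyte genes S100b, Aqp4, Gjb6, Grin2c and Hsd11b1 together held under 0.1% of the UMIs, and at most 1 of 7 genes of other lineages was present. Of the 5166 cells left, 4150 had at most 2 of 10 cell cycle genes and were taken as quiescent, and the other 1016 are called cycling below. The study used a partly different set of genes and scored cells with over 1 of them as in G1. It doubled this limit with Version 3, whereas the limit here is the same for both chemistries. Some Version 2 cells taken as quiescent here can thus be proliferating by the study's scoring. Recombined cells, 205 in number, had over 1 UMI of WPRE and bGHpolyA together (over 2 with Version 3 of the chemistry), and 3240 unrecombined cells had none. Another 705 cells lay between the limits.

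Cells were thus chosen by their reporter UMIs and by the genes of the filter, and the values of these are given as a description. With Version 2, 100 quiescent cells had 1 UMI of the reporter elements and fell just outside the limit, 27 had 2 UMIs and fell just inside, and the highest count was 6. With Version 3, 134 cells had 2 UMIs and fell outside, 35 had 3 and fell inside, and the highest count was 27. Recombined cells numbered 54 at 1 month, 20, 8 and 21 in the experiments at 2 months, and 11, 21 and 70 at 6 months. They were read somewhat deeper, with a median of 6669 UMIs against 5376.5 in unrecombined cells.

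The library totals ran from 4861883 to 43826338 UMIs. Version 2 of the chemistry was used at 2 months and Version 3 at the other ages, so that 2 months and the chemistry cannot be told apart. 59 barcode sequences occurred in more than 1 library. Among the 3445 cells compared here, 0 sequences occurred in more than 1 library. Sequences shared between these cells and the remaining barcodes were not counted. In the first experiment at 2 months, GFP+tdT+ cells were sequenced with GFP-tdT- cells and apart from GFP+tdT- cells, and 10 of 67 quiescent cells of the former library passed the limit (14.9%, exact 95% interval 7.40 to 25.7) against 10 of 521 of the latter (1.92%, 0.924 to 3.50). The other libraries held both sorts together, with shares of 4.82% at 1 month, 2.66% and 12.3% at 2 months, and 5.70%, 3.27% and 6.17% at 6 months. These intervals cover counting error only.

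The limit was also applied to microglia-like cells, which do not belong to the neural lineage, although whether dividing microglia had themselves recombined the reporter was not tested. Among 679 microglia-like cells of the Version 2 libraries, which had at least 5 of 12 microglial genes and a median of 2884 UMIs, 2.95% were above it (exact 95% interval 1.81 to 4.51). Quiescent cells of the same libraries stood at 4.62% (3.44 to 6.07) with a median of 2090 UMIs. With Version 3 only 38 microglia-like cells were found, at a median of 4913 UMIs, and 18.4% of them passed (7.74 to 34.3) against 5.05% of quiescent cells (4.30 to 5.88) at a median of 6666.5. Of these 38 cells 5 had over 5 UMIs of the reporter elements, and the highest count was 16. The share among quiescent cells was thus below that among microglia-like cells with Version 3 and overlapped it within counting error with Version 2, and it is not read as a frequency of recombination.

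The cell type expected from the filters was checked against markers, and the data went against it in part. Hopx, a stem cell marker that also belongs to the filter, had a UMI in 48.8% of recombined and 55.2% of unrecombined cells. A median of 3 of the 6 radial glial and astroglial genes was detected in recombined and 4.5 in unrecombined cells. These genes together held a mean of 0.478% of UMIs against 0.949%. The recombined share was the higher one in 1 of 7 experiments. A list of 14 oligodendrocyte precursor genes held at least 0.3% of the UMIs in 1691 of the 4150 quiescent cells. The cells fell into separate groups by this measure, with only 88 cells between 0.1% and 0.3% and 7 between 0.3% and 0.5%.

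Among unrecombined cells, those with oligodendrocyte precursor genes made up 19.8% at 1 month, 7.69%, 4.96% and 24.0% in the experiments at 2 months, and 20.4%, 80.2% and 76.2% at 6 months. Among recombined cells the shares were 31.5%, then 10.0%, 0% (0 of 8 cells) and 33.3%, then 18.2%, 47.6% and 68.6%, so that the recombined share was the higher one in 3 of 7 experiments. In the second and the third experiment at 6 months most of the unrecombined cells thus carried genes of another lineage. The neuroblast genes Dcx, Neurod1, Neurog2, Sox11, Igfbpl1 and Tubb3 were found more often in recombined cells. These 6 genes held at least 0.3% of the UMIs in 34 of 205 recombined cells and in 43 of 3240 unrecombined cells, and the recombined share was the higher one in every experiment.

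**Figure D1:**
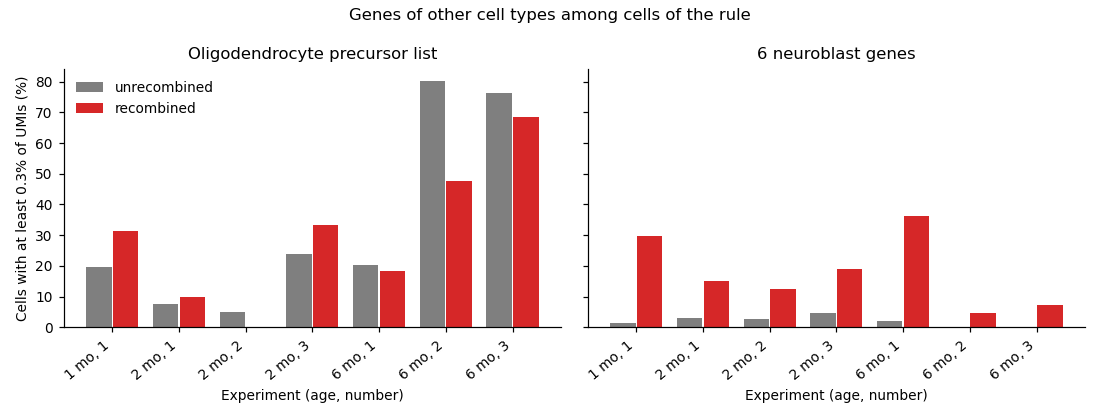
Percent of cells in which the list of oligodendrocyte precursor genes (left) or 6 neuroblast genes (right) held at least 0.3% of the UMIs, for unrecombined (grey) and recombined (red) cells in each of the 7 experiments. Oligodendrocyte precursor genes were carried by 80.2% and 76.2% of unrecombined cells in the second and the third experiment at 6 months, and neuroblast genes reached 36.4% of recombined cells in the first.

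For this reason the cells are called recombined and unrecombined and are not given a cell type name, and each comparison is reported both for all cells of the filter and for restricted cells. The latter had under 0.3% of their UMIs in the oligodendrocyte precursor list, in a list of 16 vascular genes and in the 6 neuroblast genes. There were 82 restricted recombined cells (21 at 1 month, 14, 7 and 9 at 2 months, and 5, 10 and 16 at 6 months), 1873 unrecombined and 500 cycling ones. Of the 14 in the first experiment at 2 months, 9 came from the library sorted as GFP+tdT- and 5 from the library with GFP+tdT+ cells. The restricted comparison was not repeated with the former left out. In restricted cells Hopx had a UMI in 85.4% of recombined and 87.6% of unrecombined cells. The 6 radial glial and astroglial genes of the filter together held a mean of 0.878% of UMIs in recombined and 1.60% in unrecombined restricted cells. The recombined share was the higher one in 0 of 7 experiments. Recombined cells made up 3.30% of restricted quiescent cells with Version 2 (exact 95% interval 2.24 to 4.68). This was close to the 2.95% of microglia-like cells. The restriction did not make both sides alike. At least 1 UMI of a neuroblast gene remained in 52.4% of restricted recombined cells and 23.6% of unrecombined cells, the median depth was 5634.5 against 3578 UMIs, and a mean of 0.90 against 0.39 of the 10 cell cycle genes was detected per cell.

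The stop sequence of the reporter had played no part in the choice of cells. Its element, tdTomatoLoxP, ran from 359 to 2034 CPM (UMIs per 1000000 UMIs of the summed cells) in recombined cells and from 1290 to 3139 in unrecombined cells, and it was lower in recombined cells in all 7 experiments. The mean log2 difference was -1.04 (SD 0.81, n = 7 experiments, p = 0.0156 in a two-sided exact test that flips the signs, which cannot give a lower p with 7 pairs). In restricted cells it was -0.81 (SD 0.82, n = 7), lower in 6 of 7 experiments (exact p = 0.0312). With cells pooled over experiments, tdTomatoLoxP stood at 1581 CPM in recombined, 1926 in cycling and 2565 in unrecombined cells. In restricted cells these levels were 2180.5, 1822 and 2802, so that cycling cells were lowest there. Whether recombination or the state of the cells lowered the element was not tested. In recombined cells the transcript was thus lower as a share of UMIs and not absent. Its median count was 7 UMIs in recombined and 12 in unrecombined cells, and 9 and 8 in restricted cells. The study also asked for under 4 reads of this element (under 8 with Version 3) in a tdTomato+ cell, a limit not set here. Of the restricted recombined cells 3 of 21 were within it at 1 month. At 2 months these were 4 of 14, 5 of 7 and 9 of 9. At 6 months they were 5 of 5, 2 of 10 and 2 of 16. With this limit recombined cells went from 3.49% to 1.28% of restricted quiescent cells, so most of them were outside it. The name recombined thus refers to the limit on WPRE and bGHpolyA. Whether each of these cells had recombined its reporter was not tested. eGFP, the transcript of the Nestin-GFP transgene, had a log2 fold change of -0.26 (SE 0.16, adjusted p = 0.352) over all cells and of -0.06 (SE 0.15, adjusted p = 0.864) in restricted cells.

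**Figure D2:**
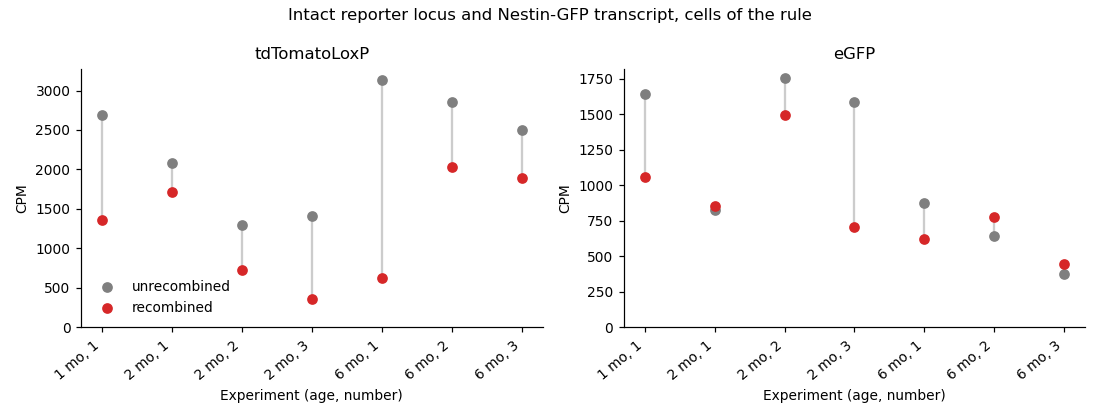
CPM of tdTomatoLoxP (left) and eGFP (right), 1 pair of points per experiment, for unrecombined (grey) and recombined (red) cells of the filter. tdTomatoLoxP was lower in recombined cells in all 7 experiments, whereas eGFP was higher in some and lower in others.

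Over all cells of the filter, recombined cells had more transcript of ribosomal proteins, of neuroblast genes and of regulators of entry into the cell cycle, and less of genes with mature astroglial functions. Counts were summed per experiment and compared with edgeR's quasi-likelihood test with the experiment as a block, after scaling to total UMIs, and all adjusted p-values given here are from this test. Of 5152 genes tested, 292 were higher (5.67%) and 152 lower (2.95%) in recombined cells at an adjusted p under 0.05. With TMM scaling these were 249 and 200, so that the higher genes made up 55.5% of the calls and not 65.8%. The p-values rest on the spread between experiments, each of which pooled several animals. This spread is estimated in part across genes, so that a low p does not mean that all experiments had the same direction.

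Leaving out single experiments moved the number of lower genes by over 1.5 times in 5 cases. It was 87 without the 1-month experiment, 94 and 92 without the first and the third at 2 months, and 92 and 249 without the first and the second at 6 months. Without both experiments at 6 months in which most unrecombined cells carried oligodendrocyte precursor genes, 559 genes were higher and 370 lower. Among cells with no UMI of the 6 neuroblast genes, 59 of them recombined, 26 of 4021 genes tested were higher and 4 lower. Among cells with no cell cycle gene 76 of 4867 were higher and 34 lower.

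The gene of lowest p was Elavl2, which encodes an RNA-binding protein of neurons and their precursors. It ran from 52.3 to 422 CPM in recombined cells (median 181) and from 8.06 to 86.4 in unrecombined cells (median 39.2), with a log2 fold change of 2.49 (SE 0.21, adjusted p = 1.55e-08). It was higher in recombined cells in 7 of 7 experiments, although the ranges overlapped. Genes entered the test by the share of cells in which they were detected, and Elavl2 passed this limit in recombined cells alone. Of the 1054 genes that did so, 50 were called higher and 0 lower. Elavl2 had no test value in cells with no neuroblast gene or in cells with no cell cycle gene. Sox11, a transcription factor of immature neurons and one of the 6 neuroblast genes, had a log2 fold change of 2.42 (SE 0.26, adjusted p = 0.000184). Nfix, a transcription factor of neural progenitors, did not overlap between the groups, with 568 to 1327 CPM against 280 to 411 (log2 fold change 1.32, SE 0.14, adjusted p = 1.47e-06). Its value was 0.46 (adjusted p = 0.632) in cells with no neuroblast gene.

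Of the other leading genes that were higher, Hmgn2, a nucleosome-binding protein, Hnrnpa1, a splicing factor, Odc1, the first enzyme of polyamine synthesis, Cdk6, a kinase of the G1 phase, and the immediate early genes Ier5 and Egr1 had log2 fold changes between 1.43 and 2.30, and each was higher in 7 of 7 experiments. Rplp0, Rpsa, Rpl39 and Eef1a1, of the ribosome and of translation elongation, lay between 0.98 and 1.23. Egr1 ran from 126 to 635 CPM against 40.5 to 122 with no overlap, and it kept a log2 fold change of 2.10 (adjusted p = 1.44e-12) in cells with no neuroblast gene.

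Among genes that were lower, Cd81, a tetraspanin of the cell surface, ran from 1214 to 2101 CPM in recombined cells and from 2377 to 3607 in unrecombined cells (log2 fold change -0.85, SE 0.14, adjusted p = 0.000247). These ranges did not overlap. The other leading genes included Gpm6a, a membrane glycoprotein (-0.96), Ptn, a secreted growth factor (-0.76), Ptprz1, a receptor of Ptn (-0.74), Cspg5, a proteoglycan (-0.74), Car2, a carbonic anhydrase (-1.34), Slc4a4, a bicarbonate transporter (-1.48), and Fgfr3, a receptor of fibroblast growth factors (-1.35). Several of these are shared by astroglia and oligodendrocyte precursors. In cells with no neuroblast gene the call for Ptn was lost (0.13, adjusted p = 0.953).

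By list, 74 of 80 ribosomal protein genes tested were higher and none lower, with a median log2 fold change of 0.75 beside 0.02 over all genes. Among cells with no neuroblast gene 6 of the 80 were higher, and among cells with no cell cycle gene 19. Of 20 intermediate progenitor and neuroblast genes 11 were higher and none lower (median 1.19), and in cells with no neuroblast gene 0 of the 12 tested were higher. Of 35 genes of mature astroglial functions 18 were lower and none higher (median -0.78), and of 14 immediate early genes 9 were higher and none lower (median 1.16). In cells with no neuroblast gene 1 of 34 astroglial genes was lower and 9 of 14 immediate early genes were higher, and in cells with no cell cycle gene 4 of 35 and 6 of 13. Of the 14 oligodendrocyte precursor genes 1 was lower, Gpr17. Clu, Apoe and Id4 had log2 fold changes of -1.34 (adjusted p = 0.0667), -0.99 (adjusted p = 0.0185) and -0.62 (adjusted p = 0.481), and the call for Apoe was lost without the first experiment at 6 months (-0.82).

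In restricted cells, with fewer cells of other lineages on either side, 79 of 80 ribosomal protein genes and 12 of 13 immediate early genes were higher, as were 5 of 7 genes of the G1 phase and 11 of 21 high mobility group and chromatin genes. Of 34 genes of mature astroglial functions 30 were lower, with some genes of lipid metabolism and of the lysosome. Of 3854 genes tested, 340 were higher (8.82%) and 222 lower (5.76%) in recombined cells. With TMM scaling 253 were higher and 309 lower, so that the higher genes made up 45.0% of the calls and not 60.5%, and the median log2 fold change of all genes moved from 0.08 to -0.02. The number of lower genes was 144 without the third experiment at 6 months.

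Depth, neuroblast genes and cell cycle genes moved with the groups in these cells, and each was taken up in a smaller set. With 5 unrecombined cells matched in depth to each recombined cell, 219 of 4134 genes tested were higher and 160 lower. Among cells with no UMI of a neuroblast gene, 39 of them recombined, 61 of 3888 were higher and 15 lower. Among cells with no cell cycle gene, 32 of them recombined, 75 of 3429 were higher and 10 lower. Counts from these smaller sets follow with the groups of genes and are to be read beside these totals. They hold fewer cells, and whether that or the feature removed lowered the counts was not tested.

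**Figure D3:**
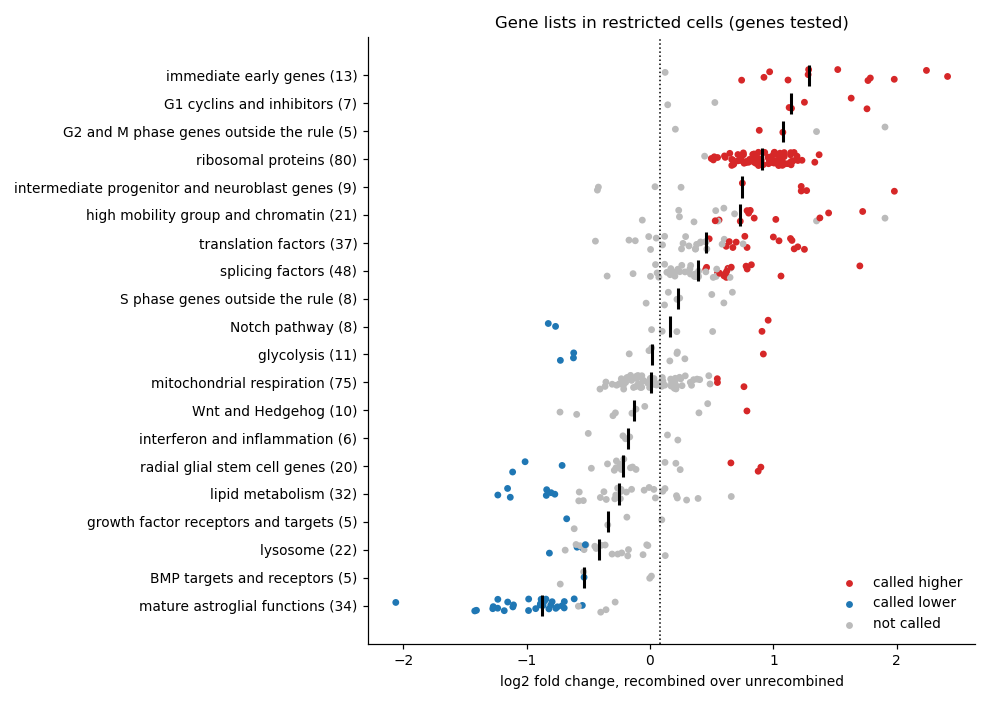
Log2 fold change of recombined over unrecombined restricted cells for each gene tested, by list, with the number tested in brackets. Red and blue points are genes called higher and lower, black bars are list medians and the dotted line is the median of all genes (0.08). Immediate early genes lay farthest to the right (median 1.29) and mature astroglial functions farthest to the left (median -0.87).

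Ribosomal protein genes, whose products are the protein part of the ribosome, took a larger share of all UMIs in recombined cells in 7 of 7 experiments. The share ran from 10.0% to 16.9% in recombined cells (mean 13.7% ± 2.27, SD, n = 7) and from 5.12% to 9.05% in unrecombined cells (7.27% ± 1.48), and the groups did not overlap. Of 80 genes tested 79 were higher and none lower, with a median log2 fold change of 0.91. The number higher was 28 in cells with no neuroblast gene (median 0.62), 31 in cells with no cell cycle gene (median 0.81) and 72 with matched depth.

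Rplp0, which encodes a protein of the ribosomal stalk and lies at chr5:115559467-115563727 on the plus strand (GRCm38), ran from 2134 to 3775 CPM in recombined cells (median 2434) and from 617 to 1312 in unrecombined cells (median 1097). Its log2 fold change was 1.37 (SE 0.16, adjusted p = 8.48e-11). Rpsa and Rps3, both of the small subunit, had values of 1.34 and 1.23. Rps3 did not overlap between the groups, with 1319 to 2623 against 538 to 1020 CPM. Ribosomal protein genes have many processed pseudogenes, and how reads shared with these were assigned could not be examined in the count table.

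Of 37 translation factors 14 were higher and none lower (median 0.45). Eef1a1, which brings aminoacyl-tRNA to the ribosome, ran from 2038 to 4133 CPM against 967 to 1702 with no overlap (log2 fold change 1.25, SE 0.15, adjusted p = 6.95e-10). Eef2, the translocation factor, rose by 1.15 and Eif3e, a subunit of an initiation factor, by 1.17 on the log2 scale. Only 3 of 35 were higher in cells with no neuroblast gene and 4 of 36 in cells with no cell cycle gene.

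Genes that regulate the start of the cell cycle were higher in recombined cells. Of 7 G1 cyclins, kinases and inhibitors tested 5 were higher and none lower (median 1.15), namely Ccnd2, Cdk6, Cdk4, Mycn and Cdkn2c. The last of these encodes an inhibitor of G1 kinases. Ccnd2, which encodes cyclin D2 and lies at chr6:127125162-127152193 on the minus strand, ran from 347 to 1510 CPM in recombined cells (median 1082) and from 149 to 349 in unrecombined cells (median 304). Its log2 fold change was 1.63 (SE 0.15, adjusted p = 3.82e-15), and its level was the higher one in 7 of 7 experiments. The lowest recombined value, at 1 month, fell just inside the unrecombined range.

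Cdk4, a kinase partner of cyclin D2, ran from 273 to 679 CPM against 105 to 245 with no overlap (log2 fold change 1.13, SE 0.17, adjusted p = 1.11e-07). Cdk6, with the same role, rose by 1.76 and Mycn, a transcription factor of growth, by 1.25 on the log2 scale. Of the 7, Mycn alone was higher in cells with no neuroblast gene (1.51, adjusted p = 0.00669), where Ccnd2 had a value of 0.51 (adjusted p = 0.457). Of 6 tested in cells with no cell cycle gene 2 were higher, Ccnd2 (1.83, adjusted p = 2.20e-09) and Cdk4 (1.17, adjusted p = 0.0095), and 5 of 7 with matched depth. Cdkn1b, another inhibitor of G1 kinases, had a value of 0.14 (adjusted p = 0.769).

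Genes of later phases gave fewer calls, in cells from which those with over 2 of 10 cell cycle genes had been removed. None of 8 S phase genes outside the filter passed the test (median 0.23). All 30 listed S phase genes together held means of 0.0905% of UMIs in recombined and 0.0528% in unrecombined cells. Of 5 genes of the G2 and M phases 2 were higher, Tubb5, a tubulin (log2 fold change 0.89, adjusted p = 2.24e-05), and H2afx, a histone variant (1.08, adjusted p = 0.00572). All 5 had positive values, with a median of 1.08. With TMM scaling 3 were higher, as with matched depth. In cells with no cell cycle gene 2 of 5 were higher (median 0.71), and in cells with no neuroblast gene 0 of 5 (median 0.40).

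Of 21 high mobility group and chromatin genes 11 were higher and none lower (median 0.73). Hmgn2 ran from 845 to 3623 CPM against 287 to 948 (log2 fold change 1.72, SE 0.16, adjusted p = 3.67e-15), and 0.96 (adjusted p = 0.00187) in cells with no neuroblast gene. Hmgb3, of the same class, rose by 1.38, Ptma, an acidic nuclear protein, by 1.02 and H3f3b, a replication-independent histone, by 0.84. Of 48 splicing factors 15 were higher and none lower (median 0.39), led by Hnrnpa1 (1.70, SE 0.16, adjusted p = 1.40e-14), Srsf3 (0.82) and Hnrnpab (1.06). These counts were 1 of 20 and 1 of 48 in cells with no neuroblast gene, 3 of 19 and 1 of 47 in cells with no cell cycle gene, and 10 of 21 and 6 of 48 with matched depth. For splicing factors the first 2 sets were near the share over all genes tested, which was 61 of 3888 and 75 of 3429.

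Tmsb4x, which encodes an actin-binding peptide and belongs to none of the lists, had the lowest p of all. It ran from 3317 to 8548 CPM in recombined cells (median 4460) and from 804 to 1753 in unrecombined cells (median 1434), with no overlap. Its log2 fold change was 1.93 (SE 0.15, adjusted p = 7.91e-18), and 1.26 (adjusted p = 4.86e-08) in cells with no neuroblast gene. Gpd1, a glycerol phosphate dehydrogenase, and Selenoh, a nuclear selenoprotein, rose by 1.47 and 1.81 on the log2 scale.

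Immediate early genes, which are transcribed within minutes of a stimulus without new protein synthesis, were higher in recombined cells. Their summed share of UMIs was higher in 7 of 7 experiments, with 0.289% to 2.17% in recombined cells (mean 1.13% ± 0.69, SD, n = 7) and 0.203% to 0.756% in unrecombined cells (0.448% ± 0.21). Of 13 genes tested 12 were higher and none lower (median 1.29), and the exception was Cyr61 (0.12). At least Fosb among the genes called higher had passed the limit on detection in recombined cells alone. With matched depth 11 of 13 were higher with a median of 1.10. In cells with no neuroblast gene 9 of 13 were higher with a median of 1.44, and in cells with no cell cycle gene 9 of 13 with a median of 1.52. Both groups came from tissue that was dissociated with warm enzymes and sorted before capture. Whether this handling changed the levels of these genes was not tested.

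Btg2, an antiproliferative gene at chr1:134075170-134079120 on the minus strand, ran from 340 to 1614 CPM in recombined cells (median 636) and from 89.6 to 316 in unrecombined cells (median 209). The groups did not overlap, and the log2 fold change was 1.77 (SE 0.17, adjusted p = 9.55e-14). Jun, a subunit of the AP-1 transcription factor, ran from 698 to 5051 CPM against 556 to 1384 and was higher in 7 of 7 experiments (log2 fold change 1.29, SE 0.18, adjusted p = 5.54e-08). Ier2 ran from 39.7 to 749 against 26.4 to 179, with the lower values in the first experiments at 2 and 6 months (1.98, SE 0.18, adjusted p = 1.70e-15). Fosb, another subunit of AP-1, was higher in only 4 of 7 experiments. Its log2 fold change was 2.24 (SE 0.30, adjusted p = 1.11e-07). Its levels were farthest apart in the second and the third experiment at 6 months, with 267 and 450 CPM against 56.5 and 50.6. Like Elavl2 over all cells, Fosb passed the limit on detection in recombined cells alone. Of the 1130 genes that did so in restricted cells, 92 were called higher and 0 lower.

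Promoters of this group were searched because its members moved together. Windows from 250 bases before to 50 bases after the RefSeq start site (GRCm38.p6) were found for 18 of the 21 genes of the list, and the 250 bases before the start were searched on both strands for TGACGTCA, the cyclic AMP response element, and for TGACG, which it contains. TGACG was found in 9 of 18 immediate early genes (50%) against 19.8% of 27025 genes with a window, and TGACGTCA in 2 of 18 (11.1%), Btg2 and Dusp1, against 1.77%. The whole list was searched, so these shares do not depend on the levels in recombined cells. Of the 10 genes with a window that were called higher in restricted cells, 6 held TGACG and 2 TGACGTCA. The genes set beside the list were not matched for base content. A match describes the letters of the window and not a bound site. The stretches around the matches follow for the AP-1 subunits Fos and Fosb, for Btg2 and for Dusp1, a phosphatase of MAP kinases. The first pair of windows held the short motif alone and the second pair the full one. They are written 5′ to 3′ on the strand of the gene with the motif in capitals, from chr12:85473794-85473873 (plus), chr7:19310056-19310135 (minus), chr1:134079272-134079351 (minus) and chr17:26508566-26508645 (minus).
Fos: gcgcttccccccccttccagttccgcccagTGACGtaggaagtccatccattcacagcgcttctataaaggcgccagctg
Fosb: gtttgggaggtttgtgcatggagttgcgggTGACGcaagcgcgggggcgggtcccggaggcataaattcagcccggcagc
Btg2: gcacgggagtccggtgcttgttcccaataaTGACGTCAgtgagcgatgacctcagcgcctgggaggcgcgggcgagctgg
Dusp1: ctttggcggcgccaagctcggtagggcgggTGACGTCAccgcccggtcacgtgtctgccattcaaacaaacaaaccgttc
The motif began 66, 60, 166 and 143 bases before the start site. Fos and Dusp1, which were chosen for their sequence and fell outside the rule for named genes, had log2 fold changes of 1.52 (SE 0.33, adjusted p = 0.0104) and 1.28 (SE 0.23, adjusted p = 0.000354).

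Genes of mature astroglial functions, among them transporters, secreted proteins and metallothioneins, were lower in recombined cells. Their summed share of UMIs ran from 2.94% to 4.77% in recombined cells (mean 3.82% ± 0.78, SD, n = 7) and from 6.10% to 9.23% in unrecombined cells (7.28% ± 1.07), with no overlap. Of 34 genes tested 30 were lower and none higher (median -0.87), and the others, Grin2b, Mfge8, Mt2 and F3, had values between -0.58 and -0.28. The astrocyte genes of the filter limit only the total of 5 other genes. The number lower was 3 in cells with no neuroblast gene (median -0.39), 2 in cells with no cell cycle gene (median -0.60) and 25 with matched depth.

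Clu, a secreted chaperone at chr14:65968483-65981547 on the plus strand, ran from 676 to 1467 CPM in recombined cells (median 1326) and from 2273 to 3439 in unrecombined cells (median 2993), with no overlap. Its log2 fold change was -1.27 (SE 0.16, adjusted p = 2.34e-09), and it was -0.77 (adjusted p = 0.00805) in cells with no neuroblast gene. Cst3, a secreted protease inhibitor and one of the most abundant transcripts, ran from 7246 to 19270 against 23560 to 39630 (-1.11, SE 0.16, adjusted p = 1.10e-07). Cldn10, a claudin, had a value of -1.23 and Slc4a4 of -2.06.

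Further genes that were lower were Cxcl14, a chemokine (-1.97, SE 0.25, adjusted p = 1.20e-09), Rgcc, a regulator of the cell cycle (-1.80), Ass1, an enzyme of arginine synthesis (-1.46), Gstm1, a glutathione transferase (-1.22), and Ramp1, a receptor partner (-1.25). Cxcl14 ran from 0 to 170 CPM in recombined and from 129 to 466 in unrecombined cells. Gm42418, a transcript that overlaps ribosomal RNA, was lower by -1.32 (adjusted p = 7.99e-08), with levels that ranged over experiments from 56.6 to 3645 and from 83.5 to 10090.

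Of 32 genes of lipid metabolism 7 were lower and none higher (median -0.25). With matched depth 7 were lower, but in cells with no neuroblast gene only 1 was lower and 1 higher, and in cells with no cell cycle gene 0 of 30 passed the test. Apoe, the main lipid carrier of glia, ran from 9794 to 17880 CPM in recombined cells and from 17090 to 28330 in unrecombined cells (log2 fold change -0.80, SE 0.16, adjusted p = 4.76e-05) and was lower in 7 of 7 experiments. Acsl3 and Acsl6, which activate fatty acids, had values of -1.15 and -1.23, and Pla2g7, a phospholipase, of -1.13. In cells with no neuroblast gene the value for Apoe was -0.20 (adjusted p = 0.726) and that for Acsl6 -1.47 (adjusted p = 0.0032). Of 22 lysosomal genes 4 were lower and none higher (median -0.42), namely Ctsd, a protease (-0.81), the membrane proteins Lamp1 (-0.59) and Cd63 (-0.55), and Psap, a sphingolipid activator (-0.52). With TMM scaling 8 were lower, with matched depth 1, and in cells with no neuroblast gene or with no cell cycle gene 0 of 21.

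The signals known to hold stem cells in quiescence did not move as 1 group. Of 8 genes of the Notch pathway list 2 were higher, the effector Hes5 and Hes6 of the same gene family. Another 2 were lower, the receptor Notch2 and the modifier Lfng. Hes5 ran from 566 to 1873 CPM in recombined cells (median 1293) and from 453 to 731 in unrecombined cells (median 592), and it was higher in 7 of 7 experiments (log2 fold change 0.96, SE 0.16, adjusted p = 1.54e-06). Over all cells of the filter its value was 0.39 (adjusted p = 0.151). In restricted cells it kept a value of 0.92 (adjusted p = 0.00245) in cells with no neuroblast gene. Notch2 had a value of -0.82 (SE 0.24, adjusted p = 0.0213), and the call was lost without the first experiment at 2 months (-0.78) or the third at 6 months (-0.91), in cells with no neuroblast gene (-0.19, adjusted p = 0.844) and in cells with no cell cycle gene (-0.80, adjusted p = 0.172). In both of these sets Hes5 alone of the 8 passed the test. Hes1, an effector with oscillating expression, had a value of 0.10 (adjusted p = 0.923).

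Of 5 BMP targets and receptors 1 was lower, Id4, an inhibitor of basic helix-loop-helix transcription factors. It ran from 596 to 1496 CPM against 940 to 2336 (log2 fold change -0.53, SE 0.16, adjusted p = 0.0132) and was lower in 6 of 7 experiments. The call was lost without the second experiment at 2 months (-0.41) or the third at 6 months (-0.53), with matched depth (-0.37), and in cells with no neuroblast gene (-0.01), and none of 4 genes passed in cells with no cell cycle gene. Id3 had a value of -0.73 (adjusted p = 0.24). Of Huwe1, a ubiquitin ligase, recombined cells had 0 to 83.3 CPM and unrecombined cells 61.7 to 95.4 (-0.55, SE 0.32, adjusted p = 0.285).

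Of 20 radial glial stem cell genes 3 were lower (median -0.22), or 4 with TMM scaling, while others were higher. Vim, an intermediate filament, rose by 0.90 (SE 0.16, adjusted p = 6.11e-06) and was higher in 7 of 7 experiments, and Tfap2c, a transcription factor, rose by 0.88 on the log2 scale. Vim alone of the 20 passed the test in cells with no neuroblast gene (0.77, adjusted p = 0.0369), and in cells with no cell cycle gene 0 of 19. Riiad1 fell by 1.11, Frzb, a secreted Wnt antagonist, by 1.01 and Hopxos, the antisense transcript of Hopx, by 0.71. Reads of Hopx and Hopxos can be told apart only as far as the counting used strand. Hopx itself, which chose the cells and is not tested, ran from 170 to 4125 CPM in recombined and from 632 to 6834 in unrecombined cells. Sox2 and Fabp7, further stem cell genes, had values of 0.12 (adjusted p = 0.701) and -0.24 (adjusted p = 0.40), and Lpar1 and Thrsp of -0.29 and -0.16 (adjusted p = 0.563 and 0.567).

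Of 9 intermediate progenitor and neuroblast genes still tested after the restriction 5 were higher and none lower (median 0.75), or 4 and 1 with TMM scaling. Sox4, a transcription factor of neuronal commitment, had a log2 fold change of 1.23 (SE 0.16, adjusted p = 3.93e-09), Stmn1, a microtubule regulator of progenitors, of 1.23 (adjusted p = 9.33e-09), Marcksl1, a membrane-cytoskeleton protein, of 1.27 and Elavl4, a neuronal RNA-binding protein, of 1.98. In cells with no neuroblast gene 1 of the 9 was higher, Stmn1 (0.88, adjusted p = 0.00794), and in cells with no cell cycle gene 3 of 8. The oligodendrocyte precursor and vascular lists had defined the restricted cells and were left out of the test, no gene of the microglial and mature neuron lists was detected in enough cells to be tested, and of 3 oligodendrocyte genes 1 was lower, Cryab (-1.00).

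Genes of energy metabolism gave few calls. Of 75 genes of mitochondrial respiration 3 were higher and none lower (median 0.005), namely Cox7a2l, Atp5g2 and Atp5b, and with TMM scaling 1 was higher and 1 lower. Of 11 glycolytic genes 1 was higher, Ldha (log2 fold change 0.92, SE 0.20, adjusted p = 0.000271), and 3 were lower, Eno1, Aldoa and Ldhb, with values between -0.73 and -0.62. Of 5 growth factor receptors and targets 1 was lower, the neurotrophin receptor Ntrk2 (-0.68), and of 10 Wnt and Hedgehog genes 1 was higher, Ctnnb1, which encodes beta-catenin (0.79). None of 6 interferon genes passed the test (median -0.18), and Xist had a value of -0.39 (adjusted p = 0.144).

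Restricted cycling cells of the same experiments, which had failed the limit on cell cycle genes alone, were used to place the recombined cells beside dividing ones. Of 6136 genes tested, 652 were higher (10.6%) and 903 lower (14.7%) in recombined than in cycling cells. Both comparisons share the recombined cells, so their values are set side by side and are not independent. The cycling cells were not split by the reporter and were read deeper, with a median of 10077.5 UMIs against 5634.5 in recombined cells. At least 1 UMI of a neuroblast gene was found in 88.2% of cycling and 52.4% of recombined cells. The comparison was not repeated with matched depth or in cells with no neuroblast gene. A limit on 10 cell cycle genes had defined the groups, so genes of the cell cycle give no finding between them.

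As a description, Ccnd2 stood at a mean of 280 CPM in unrecombined, 941 in recombined and 1946 in cycling cells, and Cdk4 at 178, 420 and 852. Genes outside the cell cycle were compared by test. Clu stood at 2842, 1152 and 151 CPM and was higher in recombined than in cycling cells (2.92, SE 0.15, adjusted p = 2.85e-81), as were Apoe (2.00) and Id4 (2.41). For Clu, Apoe and Id4 the recombined cells lay between the unrecombined and the cycling ones, and both differences passed the test. In cells with no neuroblast gene the difference from unrecombined cells kept its call for Clu and lost it for Apoe and Id4. The share of mature astroglial genes had the same order, with means of 7.28%, 3.82% and 1.10% of UMIs.

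**Figure D4:**
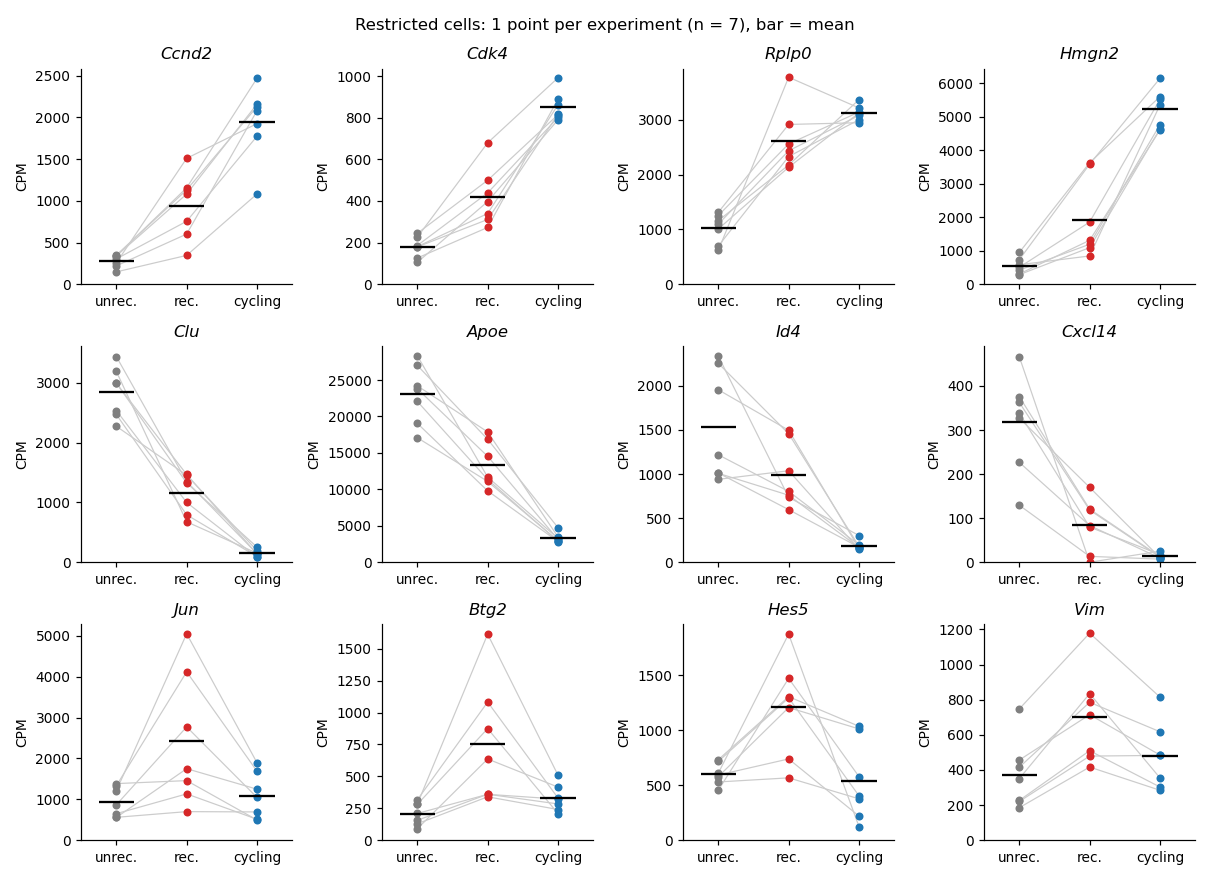
CPM of 12 genes in restricted unrecombined (grey), recombined (red) and cycling (blue) cells, 1 point per experiment, lines joining the same experiment and bars for the mean of 7. The means of Ccnd2, Cdk4, Clu, Apoe and Id4 lay between the other groups in recombined cells, whereas those of Jun and Btg2 were highest there.

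Ribosomal protein genes lay between as well, nearer to the cycling cells. They held means of 7.27%, 13.7% and 15.9% of UMIs in unrecombined, recombined and cycling cells, and 20 of 80 were lower and none higher in recombined than in cycling cells (median -0.25). For Rplp0 the difference was -0.29 (SE 0.12, adjusted p = 0.0596). Immediate early genes did not lie between and were higher in recombined than in cycling cells, with 11 of 13 called higher and 1 lower, Ier5 (median 1.20), and with shares of 0.448% of UMIs in unrecombined, 1.13% in recombined and 0.503% in cycling cells. Btg2 was higher in recombined than in cycling cells by 1.10 (SE 0.15, adjusted p = 1.89e-11) and Jun by 1.09 (SE 0.13, adjusted p = 8.05e-15), each in 7 of 7 experiments. Vim was higher by 0.52 (adjusted p = 0.00321). Hes5 was higher by 1.22 (SE 0.41) in 7 of 7 experiments and did not pass the test (adjusted p = 0.0874).

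**Figure D5:**
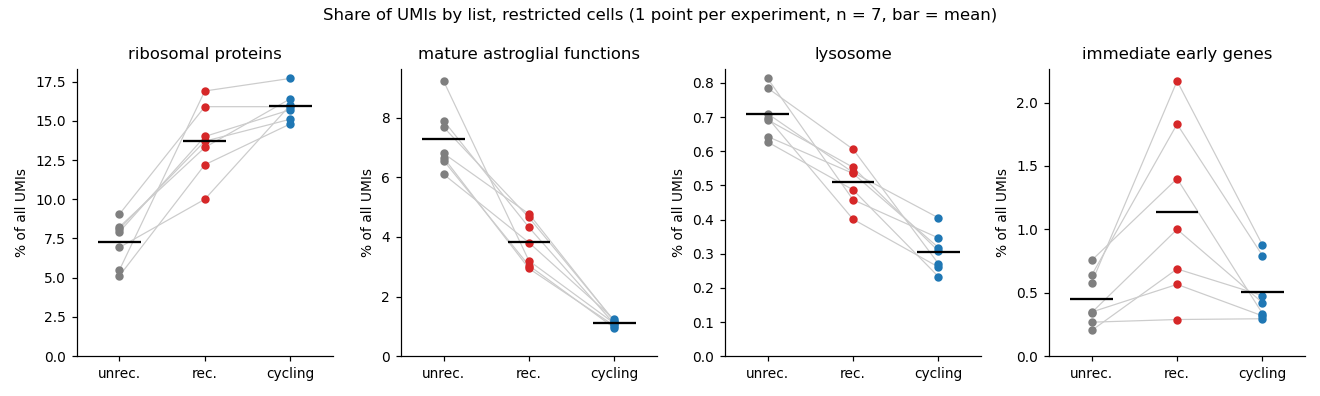
Percent of all UMIs held by 4 gene lists in restricted unrecombined (grey), recombined (red) and cycling (blue) cells, 1 point per experiment with lines joining the same experiment and bars for the mean of 7. The share of immediate early genes had means of 0.448%, 1.13% and 0.503%, and that of ribosomal proteins of 7.27%, 13.7% and 15.9%.

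Of the 705 cells between the limits on the reporter elements 395 were restricted ones, and several genes in these were nearer to unrecombined than to recombined cells. Their mean levels were 314 CPM for Ccnd2, 2583 for Clu and 21750 for Apoe, against 280, 2842 and 23080 in unrecombined and 941, 1152 and 13320 in recombined cells. Jun was farther from unrecombined cells, at 1384 against 936 and 2425, and over all cells of the filter Egr1 stood at 130.5 against 68.9 and 378. These cells entered no test.

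The difference between recombined and unrecombined cells was compared between 6 and 2 months, which also differ in chemistry. No gene passed the test of this difference, either over all cells of the filter or in restricted cells. The unadjusted p was under 0.05 for 239 of 5152 and 216 of 3854 genes. Both counts are near the share of 0.05 that would arise with no difference. With TMM scaling 3 and 8 genes passed. In simulated counts this test recovered few of the genes that had been changed, so that an empty result does not show the ages to be alike. Over all cells, 68 genes passed without the first experiment at 6 months. Genes of lowest p, chosen after their values were seen, were Dusp1, Gadd45g and Btg2 over all cells (adjusted p = 0.0524 each) and Id3 and Hes1 in restricted cells (adjusted p = 0.0613 each). The log2 ratio of recombined to unrecombined cells for Dusp1 was -0.65, 0.19 and 0.49 in the experiments at 2 months, 1.35, 2.13 and 1.12 at 6 months and 0.85 at 1 month. That for Btg2 was 0.70, 1.15 and 0.93 at 2 months, 1.90, 2.42 and 1.89 at 6 months and 0.80 at 1 month.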

How the data were processed

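The authors sorted GFP+ cells with and without tdTomato, mapped the reads with Cell Ranger 3.0.2 to mm10 with added reporter elements and deposited 1 merged matrix of raw UMI counts for 31058 features in 26036 barcodes. Barcode suffixes gave the library, and both libraries that came from 1 experiment at 2 months were added up. Filters and limits on the reporter were applied to the counts as described, without clustering or a doublet caller, and the limits on other lineages serve in place of the latter.

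Counts were summed per experiment and state. Genes detected in 20% or more of the cells of one group or the other were tested with edgeR 4.0.16 (R 4.3.3), leaving out the 28 genes of the filter, the reporter elements and, in restricted cells, the lists that defined them. Of the genes tested, 1054 over all cells and 1130 in restricted cells passed the 20% in recombined cells alone, and 50 and 92 of these were called higher and 0 lower. The experiment was the block because recombined and unrecombined cells were taken from the same pooled animals. The test was checked on simulated counts. DESeq2 1.42.0, TMM scaling and other limits were alternatives. Log2 ratios per experiment used a pseudocount of 50 CPM. Gene coordinates are of GRCm38 and promoter sequences from RefSeq.

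The cells, lists and tests were chosen with earlier results of these data known. The restricted cells and the comparison with cycling cells were added after the data had been seen. Genes named are the 12 of lowest p in each direction with the same sign in at least 6 experiments, a list of single genes, and up to 4 members of each other list. 1 named gene is not reported here.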

Additional observations from a re-analysis of the deposited data

Results flagged for a closer look

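Single experiments far from the others were looked for in 50 groups of 7 values, of which chance alone flags about 1 in 20, and 7 were found. The share of recombined cells in the third experiment at 2 months was 12.3%, with 2.66% to 6.17% in the others. 4 of the log2 ratios of recombined to unrecombined cells came from the first experiment at 6 months, which had 11 recombined cells, 5 of them restricted. There Gm42418 was at -1.73 over all cells (others -0.80 to -0.15), and in restricted cells Rps3 was at 2.19 (others 0.70 to 1.25), Cxcl14 at -3.37 (others -1.58 to -0.78) and Ramp1 at -2.69 (others -1.39 to -0.90). In restricted cells Hnrnpa1 was at 0.29 in the second experiment at 6 months (others 1.42 to 2.13), and Cldn10 at -0.65 in the first at 2 months (others -1.40 to -1.08). Each of these ratios had the same sign in all 7 experiments.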

How the results depend on the processing

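Over all cells of the filter, the counts of 292 higher and 152 lower genes became 54 and 7 with no replicate block, although states of an experiment are paired by their animals, and 489 and 258 without the filter on genes. They became 559 and 370 without the second and the third experiment at 6 months, 446 and 331 with a limit on tdTomatoLoxP, 76 and 34 in cells with no cell cycle gene, and 26 and 4 in cells with no neuroblast gene. With a limit of 1 UMI in both chemistries 80 genes were lower. Leaving out each experiment in turn gave 197 to 355 higher and 87 to 249 lower genes. In restricted cells, 340 and 222 became 190 and 115 with no replicate block, 75 and 10 in cells with no cell cycle gene, and 61 and 15 in cells with no neuroblast gene, and 201 genes were higher with DESeq2's test and 219 with matched depth. Leaving out each experiment gave 238 to 345 and 144 to 247. For the difference between 6 and 2 months, 0 genes became 3 (restricted cells 8) with TMM scaling, 8 over all cells without the filter on genes, and 0 to 68 (restricted 0 to 7) without single experiments. The share of recombined cells over all experiments, 4.94% (restricted 3.49%), became 8.17% (6.60%) with a limit of 1 UMI in both chemistries and 2.39% (1.28%) with the limit on tdTomatoLoxP. Over all cells Ptn went from -0.76 to 0.13 in cells with no neuroblast gene, where its adjusted p was 0.953. For single named genes 965 of the alternatives over all cells and 818 in restricted cells kept the direction and the call, while 51 and 35 lost it and 29 and 6 gained it. The smaller sets hold fewer cells, and beyond that the cause of these changes was not tested. Fewer than 10 restricted recombined cells in 3 of the experiments limit the precision of their values.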
